A study of Mus musculus with 24 samples.

Results

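The ErbB family of growth factor receptors, a group of its ligands and the integrin-linked kinase Ilk were followed in retroperitoneal white adipose tissue of C57BL/6J mouse offspring. The 10 genes were the entries of the deposited tables with the symbols Egfr, Erbb2, Erbb3, Erbb4, Nrg1, Nrg4, Hbegf, Areg, Btc and Ilk, out of 56895 entries in all. RNA-seq of polyadenylated transcripts had been made from 24 mice, 3 in each of 8 groups that crossed maternal diet, offspring diet and sex. Vitamin D3 in the maternal diet was 1.0 IU per g in the CTRL arm and 0.0 IU per g in the VDD arm for 8 weeks before mating and through gestation, and every dam was given the control diet from delivery on. From 6 weeks of age the offspring received a low-fat diet (LF) or a diet with 45% of its energy from fat (HF) for 8 weeks, and all were fasted overnight before the tissue was taken. The groups are thus CTRL LF, CTRL HF, VDD LF and VDD HF of either sex, and each animal is named here by its group and its number. The deficiency covered the time before birth and not the offspring's own diet. The sources name neither litter nor batch, so p-values measure the spread between mice that may or may not share a litter.

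Egfr, Erbb2, Erbb3 and Erbb4 are receptor tyrosine kinases that act in pairs. Erbb2 has no known ligand of its own and serves as the partner of the others, while Erbb3 has little kinase activity and signals through its partners. Areg binds Egfr, Hbegf and Btc bind both Egfr and Erbb4, Nrg1 binds Erbb3 and Erbb4, and Nrg4, a factor secreted by adipocytes that is abundant in brown fat, acts mainly through Erbb4. Ligands of this family are made as membrane proteins and are released by proteases of the Adam family. Ilk links the tails of beta integrins to actin together with the adaptor proteins Lims1 and Parva.

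Nrg4 had the smallest adjusted p of these genes for the offspring's diet, so the region before its start is shown. The window below runs from 250 bases before to 50 bases after the start that RefSeq gives for Nrg4, on the minus strand of GRCm38.p6, chr9:55283576-55283875. It lies inside the longer span that GENCODE M21 gives for the gene, chr9:55220222-55326844. Capitals mark TGACCT, the reverse complement of the AGGTCA element that nuclear receptors bind.
Nrg4 promoter: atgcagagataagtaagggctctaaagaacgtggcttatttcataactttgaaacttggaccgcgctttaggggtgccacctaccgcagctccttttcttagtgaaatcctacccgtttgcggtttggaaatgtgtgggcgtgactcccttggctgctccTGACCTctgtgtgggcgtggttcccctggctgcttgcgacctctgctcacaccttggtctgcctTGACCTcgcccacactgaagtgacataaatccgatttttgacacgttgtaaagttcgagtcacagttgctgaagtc
The motif occurs at 2 places, which begin 90 and 26 bases before the start (positions -90 and -26). Searched on both strands, at least 1 copy was found in 16.3% of 32851 RefSeq promoter windows of the same length and at least 2 copies in 1.81%. The windows of Areg, Btc, Egfr, Erbb2, Erbb4 and both windows of Ilk held 0 copies of these letters. The motif was chosen after the values of Nrg4 had been seen, and a match describes the sequence only.

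The libraries held 13346779 to 18484346 reads on genes, with a median of 15933506. In a check of the labelled tissue, all 6 adipocyte markers were detected in every group, with a summed level of 276784 to 800575 normalised reads per library. Some libraries also held transcripts of neighbouring tissues. VDD LF female 2303 had a summed level of 8542 over 8 kidney markers, against at most 576 in any other library, with 1937 normalised reads of Umod and 2907 of Slc34a1. VDD LF male 2310 had 980311 normalised reads over 8 skeletal muscle markers, a list that ranged from 126 upwards. The same list had a median of 217391 and reached 338432 in VDD HF males, against at most 3130 in CTRL HF males. The adrenal cortex list stood at 33093 in CTRL HF female 2292, 19166 in VDD HF female 2121 and 10401 in CTRL HF female 2290, and at 388 to 2173 in the other libraries. The word renal, left unexplained, stands in the names of 6 libraries, and VDD LF female 2303 is not among them. They are CTRL LF male 2287, CTRL HF male 2131, VDD LF male 2302, VDD HF male 2307, CTRL LF female 2124 and VDD LF female 2312. No HF female is among them, so the set is balanced neither between the diets in females nor between the sexes. Their names begin with codes from S002569 to S002577, and the others with S002480 to S002504, which are not explained. In bulk tissue, fewer cells of a type and less RNA per cell cannot be told apart.

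Levels are given as normalised reads with all 24 libraries scaled together, and differences as log2 changes. Per kb of exon, Ilk was the most abundant of the genes, with a median of 823 normalised reads per kb over the 24 libraries, followed by Nrg4 at 312. The receptors lay lower: Egfr had a median of 60.9 normalised reads per kb, Erbb2 39.9, Erbb3 15.9 and Erbb4 0.61. Among the other ligands the median per kb was 38.5 for Btc, 5.82 for Hbegf, 0.69 for Areg and 0.14 for Nrg1. The per kb ranges of Ilk (572 to 1076) and Nrg4 (119 to 613) overlapped only at the edge, and Nrg4 lay above Egfr (28.3 to 107) without overlap, whereas the range of Erbb2 (18.9 to 66.0) lay within that of Btc (10.02 to 121). The tissue thus held Nrg4 at 725 to 3723 normalised reads per library and its receptor Erbb4 at 0 to 40.1, which rests on 0 to 32 reads.

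**Figure D1:**
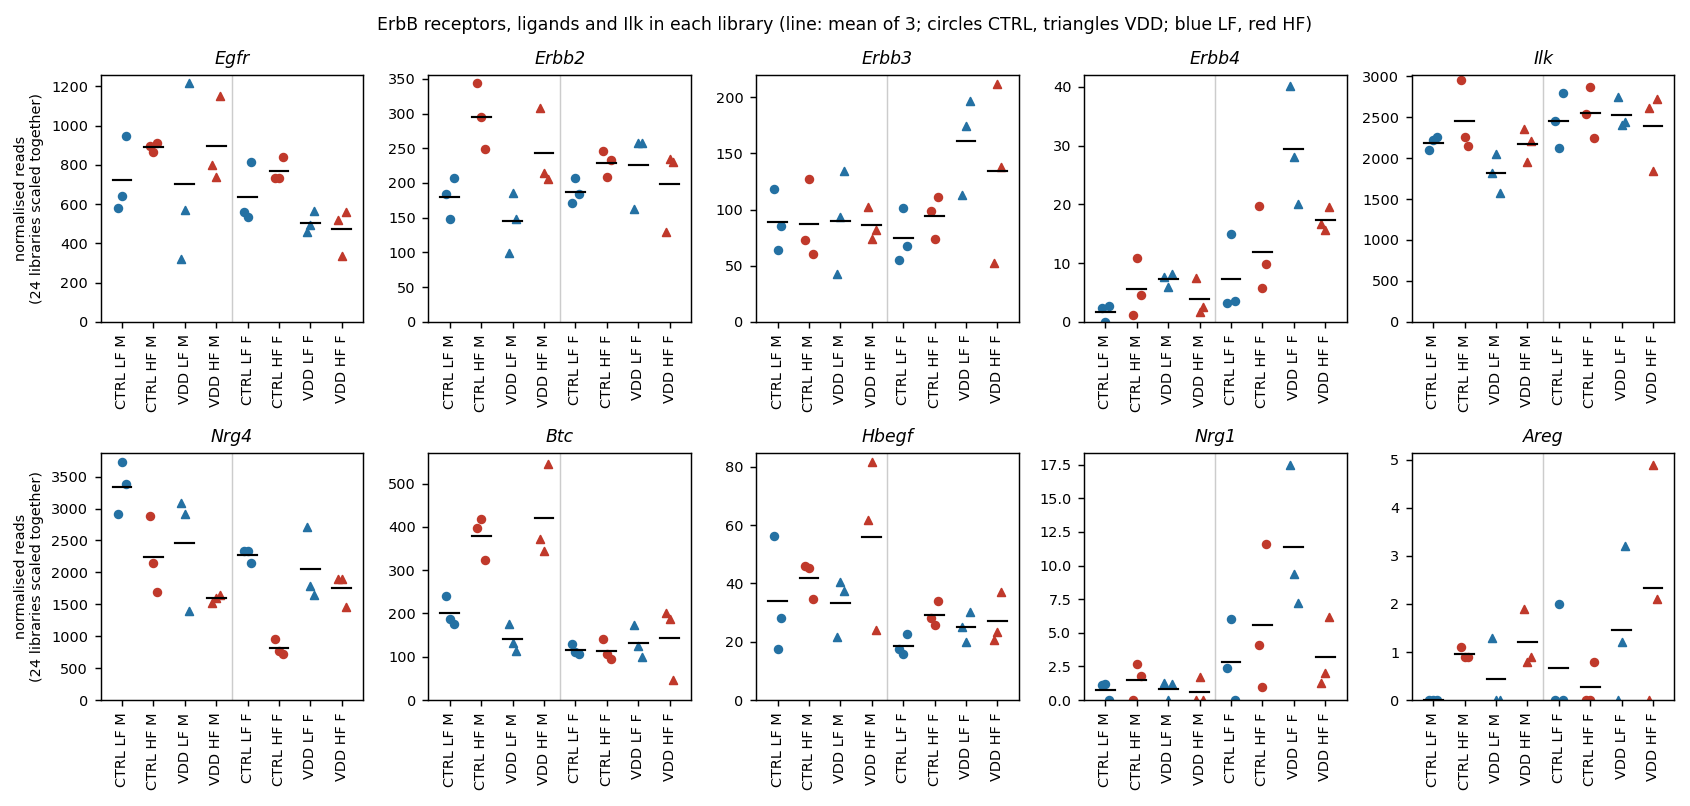
Normalised reads of the 10 genes in each of the 24 libraries (y axis, linear from 0), by group (x axis), with the mean of 3 mice as a line, circles for CTRL, triangles for VDD, blue for LF and red for HF. Nrg4 is lowest in the CTRL HF females (725 to 954), Btc is highest in the HF males (322 to 546), and Nrg1 and Areg stay below 18.

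Of the 10 genes, 8 had enough reads to be tested over the 24 libraries, at least 10 normalised reads in at least 3 libraries. Nrg1 and Areg did not. In the fit over 24 libraries a gene was called at an adjusted p under 0.05 (limma, Benjamini-Hochberg over 18399 genes). The HF diet was followed by a lower level of Nrg4 and higher levels of Btc and Erbb2. These 3 of 8 genes were called for HF against LF over the 4 combinations of mother and sex, where 29.2% of all tested genes were called (15.0% higher, 14.2% lower). Between the sexes 4 of 8 were called, Erbb4 higher and Btc, Nrg4 and Hbegf lower in females, beside 19.8% of all tested genes (10.8% higher, 9.04% lower). Erbb4 entered this test mainly through its reads in females. Maternal VDD gave 0 of 8 calls, with 1 gene (Erbb4) at an unadjusted p under 0.05 (22.9% of all genes) and also 0 calls with limma-voom, beside 4.59% of all tested genes. Under the stricter rule of an adjusted p under 0.01 with a fold above 1.5 or below 0.66, Nrg4 was called for HF (9.44% of all genes) and Btc and Erbb4 between the sexes (7.27% of all genes). The median log2 change of the 8 genes was 0.18 for HF, -0.19 for females against males and -0.03 for VDD, and that of all tested genes was 0.01 at most in size in each.

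Nrg4 fell under HF by 0.71 on the log2 scale over the 4 combinations (SE 0.13, adjusted p 0.000421), with a two-sided exact permutation p of 0.00109 when diets were exchanged within the combinations. In CTRL females it went from 2328, 2341 and 2154 normalised reads under LF to 954, 764 and 725 under HF. The groups lay far apart, with means of 2274 ± 104 (SD, n = 3) and 814 ± 122 (SD, n = 3). In the deposited table of that comparison the change was -1.51 (SE 0.13, adjusted p 0.0124), with an adjusted p of up to 0.0755 when 1 library was left out (CTRL LF female 2125). In CTRL males the LF libraries had 2914, 3723 and 3386 normalised reads and the HF libraries 2890, 2143 and 1693, so that the groups only just did not overlap (log2 change -0.61, adjusted p 0.19). In VDD males the values were 3080, 2912 and 1401 under LF and 1524, 1607 and 1648 under HF. The low LF value is that of VDD LF male 2310, the library rich in muscle transcripts, and the groups overlap because of it. With it the change was -0.55 (adjusted p 0.329), and without it -0.92 (adjusted p 0.00806). In VDD females the libraries had 2712, 1787 and 1649 normalised reads under LF and 1897, 1896 and 1451 under HF. The groups overlapped and the change was -0.20 (adjusted p 0.895), turning to 0.02 (adjusted p 0.992) without VDD LF female 2303. Each group served in 2 tables, so the comparisons of diets and of mothers share libraries.

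Averaged over its 2 combinations Nrg4 was lower under HF in either sex, in contrasts that were added after the values had been seen. In males the change was -0.57 (adjusted p 0.0245) and in females -0.85 (adjusted p 0.0174), beside 23.0% and 3.19% of all tested genes called (0.272% in females under the stricter rule, which Nrg4 did not pass there). The female average came mainly from CTRL females (-1.51), as the change in VDD females was -0.20. In females the response to HF differed between mothers by 1.285 (SE 0.354, adjusted p 0.583), a contrast also added after the values had been seen. Single libraries carried the calls in males and in females. In males, leaving out CTRL LF male 2293 gave an adjusted p of 0.063, CTRL HF male 2131 gave 0.0734, VDD LF male 2078 gave 0.0709 and VDD LF male 2302 gave 0.0644. In females it was 0.0522 without CTRL LF female 2125 and 0.0573 without VDD HF female 2121. The male call was also lost with the brown adipocyte covariate (-0.51, adjusted p 0.0609), the mammary epithelium covariate (-0.46, adjusted p 0.0509), scaling by total reads (-0.35, adjusted p 0.146) and without the 6 libraries named renal (-0.45, adjusted p 0.219), which also ended the female call (-0.91, adjusted p 0.0774). The call over all 4 combinations held whichever library was left out. Averaged over the 4 combinations females had less Nrg4 than males, by 0.52 on the log2 scale (SE 0.13, adjusted p 0.00647), with the adjusted p at 0.0532 without the 6 libraries named renal. In VDD HF offspring the means went the other way, at 1748 in females and 1593 in males. The response of Nrg4 to VDD differed between the sexes by 0.945 (SE 0.25, adjusted p 0.699). The level of Nrg4 spanned 725 to 2712 normalised reads in females (median 1842) and 1401 to 3723 in males (median 2516).

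Under the HF diet the change of Nrg4 from CTRL to VDD mothers had opposite signs in the sexes, and neither change was called. VDD HF males (1524, 1607 and 1648) lay below CTRL HF males (2890, 2143 and 1693), with a log2 change of -0.48 (adjusted p 0.94) that became -0.27 when CTRL HF male 2127 was left out and -0.66 when animal 2131 of that group was. The skeletal muscle list was at 1526 to 338432 (median 217391) in VDD HF males and 1221 to 3130 in CTRL HF males. Its part in the lower Nrg4 of VDD HF males was not tested. VDD HF females (1897, 1896 and 1451) lay above CTRL HF females (954, 764 and 725), with a change of 1.11 (SE 0.17, adjusted p 0.131). The groups did not overlap in either sex, beside 10.3% of all genes in males and 22.9% in females. The difference between the sexes in this response was 1.56 on the log2 scale (SE 0.35, adjusted p 0.343), added after the values had been seen, and it did not pass the test over all genes, of which 0.0% were called (9.26% at an unadjusted p under 0.05). Under LF the change with VDD was -0.51 in males, or -0.14 without VDD LF male 2310, and -0.18 in females, with -0.41 without VDD LF female 2303 and -0.04 without VDD LF female 2312. Over all 4 combinations it was -0.01 with a 95% interval from -0.28 to 0.25.

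In CTRL females brown fat and adipocyte markers moved beside Nrg4 with the diet. The summed level of 6 brown adipocyte markers was 207 to 808 in CTRL HF females, 1111 to 10122 in CTRL LF females and 2953 to 38688 in VDD HF females. In VDD LF females it was 1268 to 9669, while mean Nrg4 was 2050 there and 1748 in VDD HF females. Between mothers in males the brown list went the other way from Nrg4. It was 915 to 2965 in VDD HF and 266 to 689 in CTRL HF males. Under LF it was 2658 to 6531 in VDD and 652 to 2532 in CTRL males. The skeletal muscle list had higher medians in VDD males as well, 217391 against 3041 under HF and 47612 against 764 under LF. Its part in the higher brown list of VDD males was not tested. The 6 adipocyte markers summed to 276784 to 338165 in CTRL HF females and 369599 to 444921 in CTRL LF females. Other cell marker lists were higher in the same CTRL HF females without overlap, the macrophage list at 6465 to 6605 against 3221 to 4811 under LF, the stromal progenitor list at 35597 to 43733 against 19947 to 26947 and the mesothelium list at 7374 to 14176 against 4151 to 5178, and their part in the lower Nrg4 was not tested. With the mean log2 level of the adipocyte list as a covariate the change of Nrg4 under HF was -0.81 (adjusted p 7.99e-05), and with that of the brown adipocyte list it was -0.67 (adjusted p 0.00176). Of the fits with 1 of the 4 marker lists used as covariates, the change was smallest with the mammary epithelium list (-0.66, adjusted p 0.000382). The macrophage, stromal progenitor and mesothelium lists were not used as covariates.

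Btc, betacellulin, a ligand of Egfr and Erbb4, rose under HF in males. CTRL males had 241, 188 and 175 normalised reads under LF and 398, 418 and 323 under HF. VDD males had 177, 131 and 113 under LF and 372, 345 and 546 under HF. Every HF male lay above every LF male. The change was 0.90 (adjusted p 0.0697) in the table of CTRL males, 1.57 (SE 0.26, adjusted p 0.0298, and 0.12 without VDD HF male 2298) in that of VDD males, and 1.24 (SE 0.27, adjusted p 0.0032) over both. In females Btc had 101 to 173 normalised reads under LF and 45.3 to 200 under HF. These ranges overlapped, and the change over both mothers was -0.07 with a 95% interval from -0.64 to 0.49. It became 0.03 without VDD LF female 2303 and 0.27 without VDD HF female 2121. The difference of the HF response between females and males was -1.32 (SE 0.38), with an adjusted p of 0.292 over all genes, which missed the threshold. For this difference 8 of 18399 genes (0.0435%) were called.

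Over all 4 combinations Btc rose under HF by 0.58 (SE 0.19, adjusted p 0.0275, two-sided exact permutation p 0.0288). The call was lost without VDD HF male 2308 (0.54, adjusted p 0.0523), CTRL HF female 2290 (0.54, adjusted p 0.0504) or VDD HF female 2081 (0.49, adjusted p 0.0517), with the adipocyte covariate (0.51, adjusted p 0.062) and with the brown adipocyte covariate (0.56, adjusted p 0.056). Without the 6 libraries named renal it was 0.64 (adjusted p 0.0961). Females had less Btc than males by 1.10 on the log2 scale (SE 0.19, adjusted p 0.00054), with medians of 117 and 282 normalised reads. In VDD LF offspring the sexes were close, with means of 133 in females and 140 in males.

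Erbb2, at chr11:98412470-98437716, also rose under HF in males. CTRL males had 183, 148 and 207 normalised reads under LF and 344, 294 and 248 under HF. VDD males had 98.6, 186 and 149 under LF and 308, 214 and 206 under HF. Within each kind of mother the groups did not overlap. The change was 0.71 in CTRL males (adjusted p 0.132), 0.77 in VDD males (adjusted p 0.167) and 0.74 over both (SE 0.18, adjusted p 0.00669). In females the LF libraries spanned 163 to 258 normalised reads and the HF libraries 130 to 246. CTRL HF females (246, 209 and 233) nonetheless lay above CTRL LF females (172, 207 and 183), with a change of 0.27 (adjusted p 0.247), while VDD females overlapped, with a change of -0.21 (adjusted p 0.917) that became 0.07 without VDD HF female 2081.

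Over both mothers the change of Erbb2 in females was 0.04, with a 95% interval from -0.34 to 0.42, and it turned negative, to -0.07, -0.03 and -0.02, without VDD LF female 2303, VDD HF female 2083 and VDD HF female 2121. The difference of the HF response between the sexes was -0.70 (adjusted p 0.435). In males the endothelial cell list moved beside Erbb2 and Btc, with 9763 to 16060 normalised reads under LF and 17102 to 17822 under HF in CTRL males, and 6501 to 13536 and 10076 to 17699 in VDD males. The macrophage list was at 5395 to 8538 under LF and 8037 to 11838 under HF in CTRL males, and at 3340 to 6486 and 5782 to 14642 in VDD males, and the part of these lists in the higher Erbb2 and Btc was not tested. Over the 4 combinations the rise was 0.39 (SE 0.13, adjusted p 0.0274, two-sided exact permutation p 0.0178). Erbb2 lost that call without any of 5 libraries, with adjusted p 0.0535 without CTRL LF male 2293, 0.0523 without VDD LF male 2078, 0.0535 without VDD HF male 2298, 0.0527 without VDD LF female 2303 and 0.0519 without VDD HF female 2121.

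**Figure D2:**
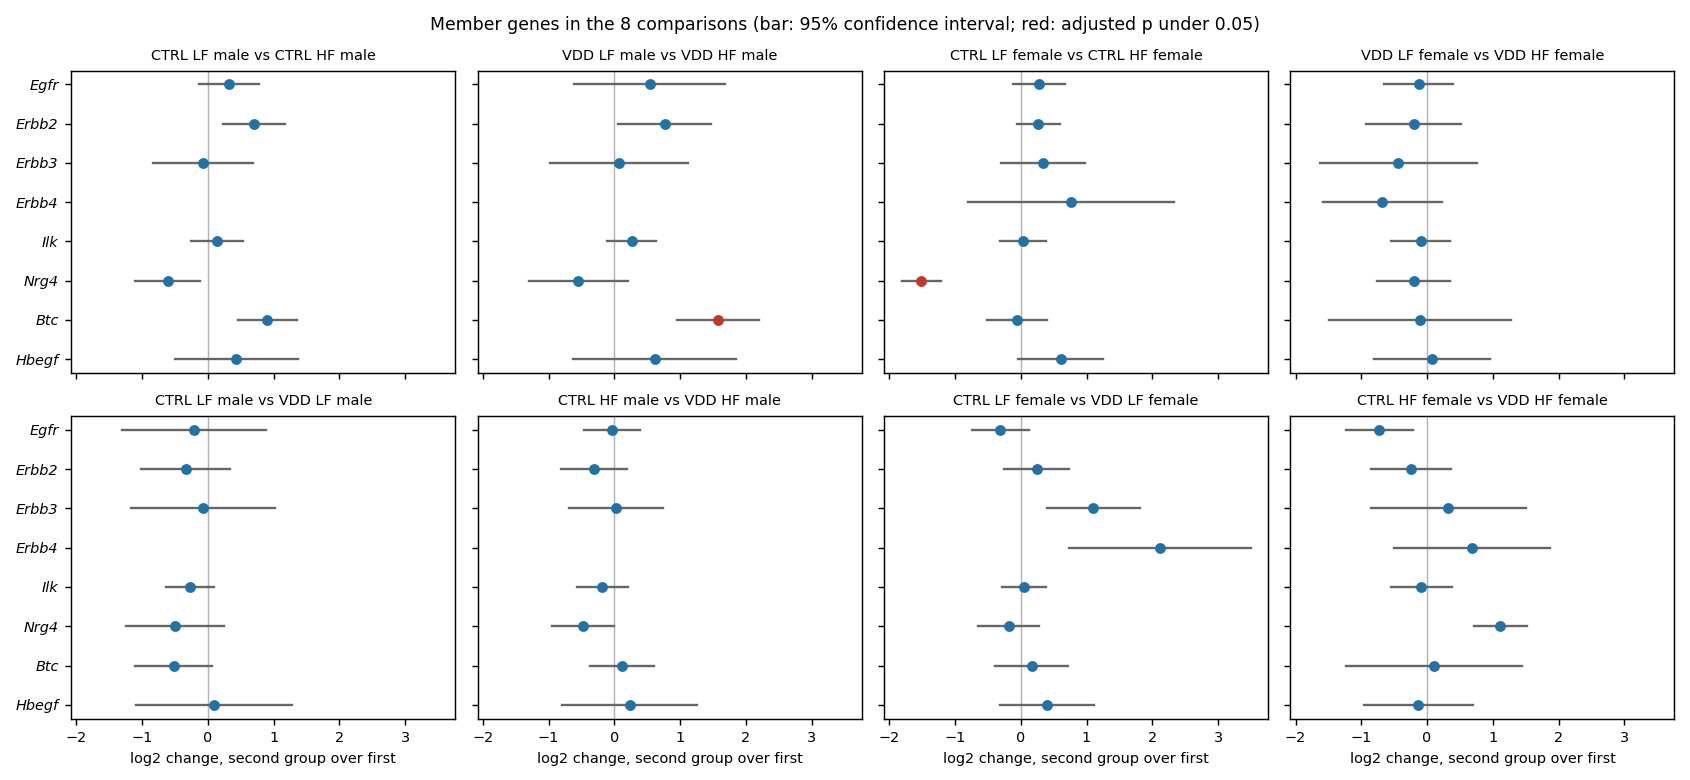
Log2 change of the tested genes (x axis, the second group over the first) in the 8 deposited comparisons, with 95% confidence intervals as bars and red points for an adjusted p under 0.05. Nrg4 in CTRL LF vs. CTRL HF females (-1.51) and Btc in VDD LF vs. VDD HF males (1.57) are the red points, and Nrg4 stands on opposite sides of 0 in the 2 comparisons of mothers under HF.

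In the 8 comparisons of the deposited tables a gene counted as called when its adjusted p was under 0.01 with a fold change over 1.5 or under 0.66. With limma 0 of the 7 genes tested in males and 0 of the 8 tested in females were called in each, and limma-voom also called 0. At an unadjusted p under 0.05, VDD against CTRL gave 0 genes under LF (6.79% of all genes) and 1 under HF (5.31%) in males, and 2 under LF (12%) and 2 under HF (16.7%) in females. HF against LF gave 3 in CTRL males (18.8%), 2 in VDD males (25.9%), 1 in CTRL females (28.8%) and 0 in VDD females (5.05%). The same thresholds called 0.0578% of all genes for HF in CTRL males, 0.0752% in VDD males and 0.0% in the other 6 comparisons. The paper, which used DESeq2 with thresholds of this kind, reported many more genes in each of the 8 comparisons. A count of 0 calls with limma at 3 mice per group therefore does not show that a gene was unchanged. At an adjusted p under 0.05 alone, Nrg4 in CTRL females under HF (7.4% of all genes) and Btc in VDD males under HF (5.35% of all genes) passed. Between LF and HF the groups did not overlap for 3 of 7 tested genes in CTRL males (24.7% of all genes), 2 of 7 in VDD males (33.4%), 3 of 8 in CTRL females (35.2%) and 1 of 8 in VDD females (11.6%). Between mothers this was so in males for 1 of 7 under LF (13.4%) and 1 of 7 under HF (10.3%), and in females for 2 of 8 under LF (18.2%) and 2 of 8 under HF (22.9%).

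Erbb4, the receptor of Nrg4, at chr1:68032186-69108059, was near the limit of detection in males and higher in females. Males had 0 to 10.9 normalised reads with a median of 3.6, and females 3.2 to 40.1 with a median of 16.2. The difference was 1.65 on the log2 scale (SE 0.33, adjusted p 0.00172, two-sided exact permutation p 0.0001). CTRL LF males had 2.3, 0 and 2.7 normalised reads, the 0 allowing up to 3 reads, and VDD LF females had 40.1, 28.1 and 20.0. The latter lay above CTRL LF females (3.2, 14.9 and 3.6), with a log2 change of 2.12 (SE 0.59, adjusted p 0.391). In that comparison the VDD LF females supplied the 3 libraries that the filter asks for. The highest value, 40.1, belonged to VDD LF female 2303, the library rich in kidney transcripts, and without it the change was 1.87 (adjusted p 0.429). VDD HF females, at 17.3 ± 2.0 (SD, n = 3), lay below VDD LF females (log2 change -0.68, adjusted p 0.837).

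Over the 4 combinations Erbb4 was higher with VDD by 1.09 on the log2 scale (SE 0.33). This missed the threshold (adjusted p 0.0619), while the two-sided exact permutation p for the gene alone was 0.0107. The call was reached without CTRL LF female 2125 (1.25, adjusted p 0.0429) or VDD LF female 2312 (1.15, adjusted p 0.0454), and without VDD LF female 2303 the adjusted p was 0.11. At so few reads the log2 changes depend on the 1 read added before the log, and with 10 added the change was 0.51 (adjusted p 0.046). In HF males the means of Erbb4 went the other way, at 5.5 in CTRL and 3.9 in VDD. The response of Erbb4 to HF differed between mothers by -1.77 (SE 0.67, adjusted p 0.9998).

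Erbb3, at chr10:128567523-128589652, had 42.3 to 212 normalised reads and was called in none of the comparisons. VDD LF females (113, 175 and 196) lay above CTRL LF females (55.3, 101 and 67.9), by 1.11 on the log2 scale (SE 0.30, adjusted p 0.391), and by 1.34 (adjusted p 0.376) without VDD LF female 2303. The change was 0.34 with VDD and 0.33 in females against males (adjusted p 0.367 and 0.327). The summed mammary epithelium markers were 501 to 5907 normalised reads in VDD LF females and 335 to 1798 in CTRL LF females, and their part in the higher Erbb3 and Erbb4 of VDD LF females was not tested in that comparison.

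Egfr, at chr11:16752203-16918158, was the most abundant of the receptors, with 320 to 1216 normalised reads, and was called in none of the comparisons either. In HF females the offspring of VDD mothers (519, 334 and 561) lay below those of CTRL mothers (735, 735 and 841), by 0.73 on the log2 scale (SE 0.21, adjusted p 0.199). Stromal progenitor markers were also lower in these VDD HF females, at 11231 to 27466 against 35597 to 43733. So was the mesothelium list (3065 to 6266 against 7374 to 14176), while the brown adipocyte list was higher (2953 to 38688 against 207 to 808). The part of these lists in the lower Egfr was not tested. Over the 4 combinations the change with VDD was -0.32 (adjusted p 0.244) and with HF 0.26 (adjusted p 0.251). Both depended on single libraries. The highest value, 1216, is that of VDD LF male 2310, the library rich in muscle transcripts. Without it the change was -0.45 with VDD (adjusted p 0.032) and 0.39 with HF (adjusted p 0.022). Without VDD LF male 2078, which had the lowest value, these were -0.21 (adjusted p 0.372) and 0.14 (adjusted p 0.462), and with the brown adipocyte covariate the change with VDD was -0.06 (adjusted p 0.88). Between the sexes the change was -0.40 (adjusted p 0.0969), -0.51 (adjusted p 0.0114) without VDD LF male 2078 and -0.27 (adjusted p 0.128) without VDD LF male 2310.

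Hbegf had 15.9 to 81.5 normalised reads, with medians of 39.0 in males and 24.3 in females. The difference between the sexes was -0.61 (SE 0.21, adjusted p 0.0442), a call that was lost in 18 of the 24 fits that left out 1 library, with adjusted p up to 0.0857 without CTRL LF male 2287. It was also lost with limma-voom (adjusted p 0.0574), without a filter (0.0712), with scaling by total reads (0.076), without the libraries named renal (0.264) and with each of the 4 marker lists as a covariate (adjusted p 0.0517 to 0.202). Under HF its change was 0.44 (adjusted p 0.122), which passed without CTRL LF male 2287 (0.55, adjusted p 0.0438) or VDD HF male 2308 (0.57, adjusted p 0.0298). In CTRL females the HF libraries (28.0, 25.9 and 34.0) lay above the LF libraries (17.6, 15.9 and 22.6), by 0.60 on the log2 scale (adjusted p 0.20).

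Nrg1 and Areg were too low to be tested. Nrg1 had 0 reads in 6 libraries and at most 17.5 normalised reads, the highest in VDD LF female 2303. The other VDD LF females had 9.4 and 7.2, and the males at most 2.7. Areg had 0 reads in 11 libraries and at most 4.9 normalised reads. At this depth 0 reads in a library allow up to 3.

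Ilk, at chr7:105736592-105742925, was the steadiest of the genes, with 1570 to 2952 normalised reads. The change was 0.21 in females against males (SE 0.08, adjusted p 0.0777), 0.09 under HF (95% interval -0.08 to 0.26) and -0.13 with VDD (95% interval -0.29 to 0.04). The change between the sexes passed without CTRL HF male 2127 (0.24, adjusted p 0.0331) or VDD HF female 2083 (0.25, adjusted p 0.0223). In LF males those of VDD mothers (1823, 2054 and 1570) lay below those of CTRL mothers (2093, 2224 and 2255) without overlap, by 0.27 on the log2 scale (adjusted p 0.789), and by 0.17 without VDD LF male 2310, the library rich in muscle transcripts.

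Epithelial transcripts moved with the differences between the sexes. The summed level of 8 mammary epithelium markers was 15 to 1239 normalised reads in males (median 199) and 195 to 5907 in females (median 1624). Krt18, a keratin of simple epithelia, was detected in all libraries, while the milk protein gene Csn3 was at 0 in all groups but CTRL LF males (0.9 to 2.5 normalised reads) and the basal keratin Krt5 was at 0 in 3 of the 4 male groups. The list was highest in VDD LF female 2311 (5907), VDD HF female 2083 (4097) and VDD LF female 2312 (3346), which were also the 3 libraries with the highest Erbb3 (175, 212 and 196 normalised reads). With the mean log2 level of this list as a covariate, added after the values had been seen, all 4 calls between the sexes were lost. The changes became -0.75 for Btc (adjusted p 0.0776), 1.29 for Erbb4 (adjusted p 0.0935), -0.62 for Hbegf (adjusted p 0.202) and -0.22 for Nrg4 (adjusted p 0.389), and that of Ilk was then called (0.42, adjusted p 0.0156). Erbb3 turned to -0.38 (adjusted p 0.337). The list moved with sex, and the part of each cannot be told apart here.

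**Figure D3:**
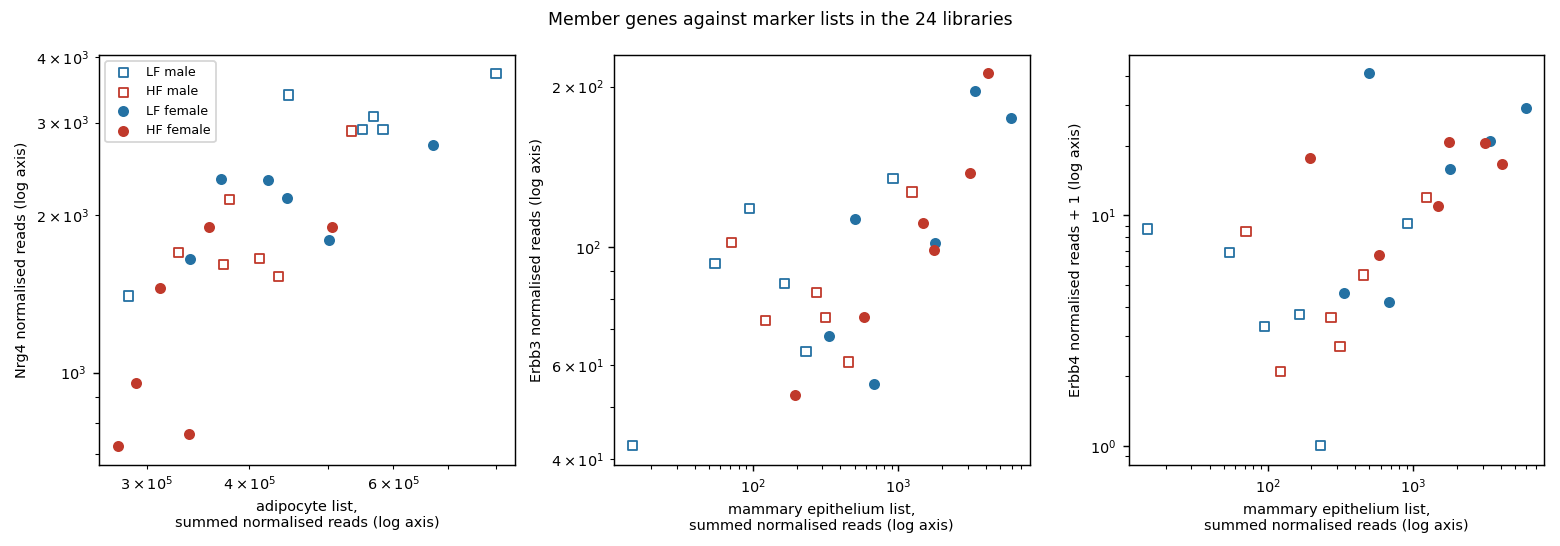
Normalised reads of Nrg4, Erbb3 and Erbb4 plus 1 (y axes, log) against the summed normalised reads of the adipocyte list (left) or the mammary epithelium list (middle and right) (x axes, log) in the 24 libraries, with open squares for males, filled circles for females, blue for LF and red for HF. The 3 CTRL HF females lie at the lower left for Nrg4 (725 to 954), and the highest Erbb4 value (40.1), in VDD LF female 2303, belongs to a library with a summed mammary level of 501.

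Genes around the ErbB receptors and Ilk were described with lists, whose counts are to be read against the share of all tested genes called, 15.0% higher and 14.2% lower for HF. For HF against LF over the 4 combinations, the list of shedding enzymes and their regulators had 4 of 8 tested genes higher and 0 lower, with a median log2 change of 0.17 beside 0.01 for all genes. They included Bace1 (0.44, adjusted p 0.00505), a protease that cleaves neuregulins, Adam17 (0.35, adjusted p 0.00519), the main sheddase of Egfr ligands, and Adam19 (0.72, adjusted p 0.0092). Over males alone Bace1 (0.70), Adam17 (0.44) and Adam19 (0.93) were called, beside 23.0% of all tested genes. Over females no gene of the list was called, beside 3.19% of all, with the smallest p for Rhbdf1 (0.22, adjusted p 0.192). Of 15 ErbB inhibitors 0 rose and 2 fell. These were Errfi1, a feedback inhibitor of Egfr (-1.11, SE 0.23, adjusted p 0.00159), and the ubiquitin ligase Cblb (-0.33, adjusted p 0.0104). The share that fell was near the 14.2% of all genes, while 0 rose beside 15.0% of all genes. The median of the list was -0.06.

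Of 28 adaptors and kinases downstream 4 rose and 5 fell, a share near the 29.2% of all tested genes called for HF, with a median of -0.02. Src rose (0.77, adjusted p 8.36e-05), as did the adaptor Grb2 (0.35, adjusted p 0.000946), and the phosphoinositide kinase subunit Pik3cb fell (-0.62, adjusted p 0.000102). Of 16 tested genes among 18 early response genes downstream of ERK, 4 rose and 1 fell. The cyclin Ccnd1 (0.99, adjusted p 0.000225) and Jun (0.62, adjusted p 0.0243) were among those that rose, and the MAP kinase phosphatase Dusp4 fell (-1.05, adjusted p 0.00228). Of 24 partners of Ilk and integrin adhesion genes 9 rose and 2 fell, with a median of 0.17. The talins Tln1 (0.53, adjusted p 0.000377) and Tln2 (0.80, adjusted p 0.00202), which connect integrins with actin, and Rsu1 (0.46, adjusted p 0.00111), which binds the Ilk complex, had the smallest p-values. Over males alone Tln1 (0.68), Rsu1 (0.67) and Ccnd1 (1.42) were called. Over females no gene of the Ilk partners or the early response list was called. Other ligands of the family were mostly too low to test: 3 of 6 were tested, 0 were called, and Nrg2 had the smallest p (0.59, adjusted p 0.115).

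Between the sexes the list of Ilk partners had 1 gene higher and 7 lower in females of 24, with a median of -0.17 beside 0.01 for all genes. Of all tested genes 10.8% were higher and 9.04% lower in this comparison. The Ilk binding proteins Parva (-0.43, adjusted p 0.000362) and Parvb (-0.69, adjusted p 0.00168) were lower, and Fermt1, an epithelial kindlin, was higher (3.75, SE 0.67, adjusted p 0.000675). Of the 28 adaptors and kinases 4 were higher and 7 lower. Grb7, an adaptor that binds Erbb2, was higher in females (1.79, adjusted p 0.00414), and Pik3cb (-0.45, adjusted p 0.00197) was lower. Of the early response genes 1 was called, Myc (0.71, adjusted p 0.000609). Of the shedding list 2 were lower, Rhbdf1 (-0.39, adjusted p 0.000542) and the protease inhibitor Timp3 (-0.62, adjusted p 0.00259), and of the 15 inhibitors also 2, Spry4 (-0.88, adjusted p 0.0129) and Cblb (-0.28, adjusted p 0.0378). Of the 3 tested ligands 0 were called, and Nrg2 had the smallest p (0.67, adjusted p 0.0978). The mammary epithelium list moved with these comparisons as well, and its part in them was not tested.

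With VDD 4.59% of all tested genes were called, and the lists had few calls. The shedding list had 1 lower, Rhbdf1 (-0.25, adjusted p 0.0438), which regulates Adam17. The adaptors had 1 higher, Hras (0.38, adjusted p 0.0441), and 1 lower, Shc1 (-0.24, adjusted p 0.0204). The early response genes had 2 lower, Etv5 (-0.45, adjusted p 0.0267) and Ccnd1 (-0.60, adjusted p 0.0409). The Ilk partners also had 2 lower, Tln1 (-0.38, adjusted p 0.0287) and Actn1 (-0.62, adjusted p 0.0337), with a list median of -0.21 beside -0.01 for all genes. Of the 15 inhibitors and the 3 tested ligands 0 were called. Errfi1 had the smallest p of the inhibitors (0.55, adjusted p 0.164). Egf, a ligand of Egfr made in the kidney among other tissues, had the smallest p of the ligands (0.89, adjusted p 0.207), with 1359 normalised reads in VDD LF female 2303 and 23.2 to 260 in the other libraries.

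**Figure D4:**
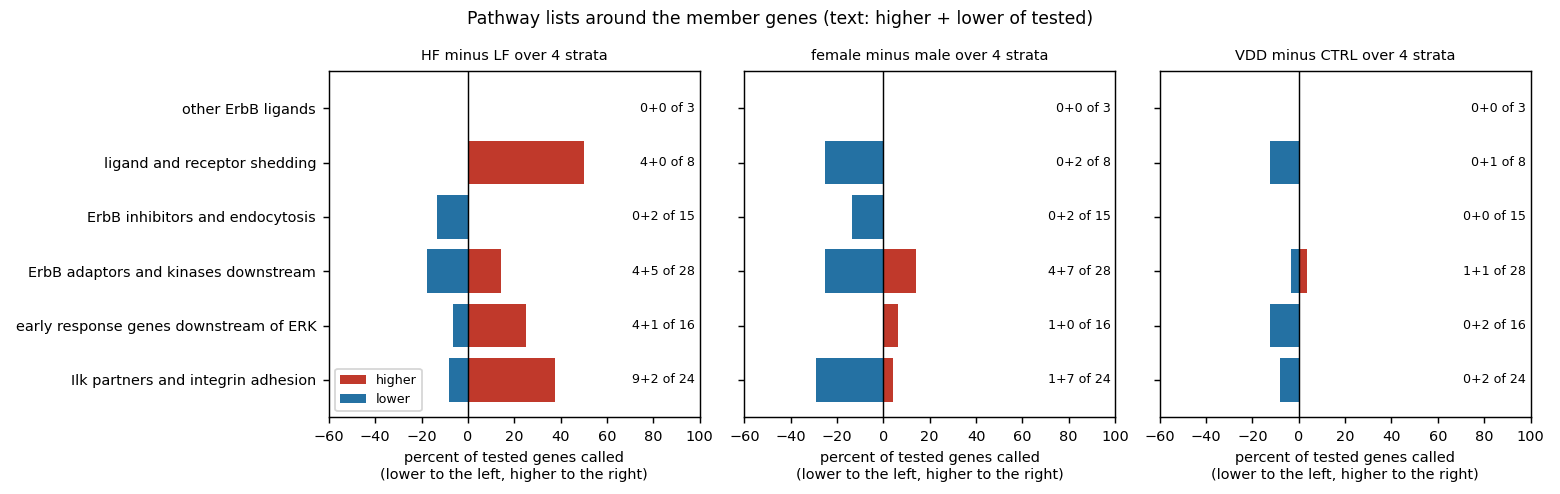
Percent of the tested genes of each list called higher (red, to the right) or lower (blue, to the left) for HF against LF, females against males and VDD against CTRL over the 4 combinations (x axes), with the counts as text. The Ilk partners had 9 higher and 2 lower of 24 for HF, 1 and 7 for females, and 0 and 2 for VDD.

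Over the 24 libraries the genes most like each of the 8 were listed by Pearson's r of log2 values among 16943 genes, libraries that share groups, depth and the other tissues named above. Nrg4 went most closely with Acad11 (r = 0.92), and Egfr with Ecm1 (r = 0.93) and Tspan5 (r = 0.92). Btc was most like Ubd (r = 0.88) and Spata6 (r = 0.85), Erbb2 like Cd9 (r = 0.89) and Endod1 (r = 0.83), and Ilk like Myl6 (r = 0.86) and Ntrk2 (r = 0.86). For the lower genes the highest values were those of Erbb4 with Ppp1r1b (r = 0.85) and Prss8 (r = 0.84), Erbb3 with Cntnap2 (r = 0.82) and Eps8l2 (r = 0.81), and Hbegf with Sema6c (r = 0.82) and Sec14l5 (r = 0.79). Among the 10 genes themselves the highest r was 0.69, between Erbb4 and Nrg1, followed by 0.54 between Erbb3 and Erbb4. Nrg4 and Erbb4 had r = -0.35.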

How the data were processed

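Retroperitoneal fat RNA from 24 mice was sequenced as stranded mRNA libraries. The authors mapped reads to mm10 with STAR 2.7.0d, assembled loci with Cufflinks 2.2.1, counted with featureCounts 1.6.1 and used DESeq2, as named in the paper's methods and the submitters' processing notes. They deposited 8 tables, each of 1 comparison of 6 libraries, with log2 values of normalised reads plus 1, and columns of their own fold changes and p-values, which were not used here. Groups came from the sample labels. Whole reads were recovered from 100.0% of values (within 0.02) and rescaled over 24 libraries by median of ratios.

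Comparisons within a table used limma 3.58.1 with a trend on the deposited log2 values, for genes with at least 10 normalised reads in at least 3 libraries. Contrasts over the 4 combinations used 1 limma fit of 8 group means. P-values were adjusted by Benjamini-Hochberg over all tested genes. Exact permutations exchanged labels within combinations (160000 arrangements, smallest two-sided p 1.25e-05). Genes described were the members, per pathway list up to 3 called genes with the smallest p (1 where none was called), and the 2 genes with the highest r to each member, of which some are not reported here. Gene spans and exon lengths are from GENCODE M21. The precision of low genes is limited by counting error, and 0 reads allow up to 3. Alternatives were limma-voom, other offsets, scalings and filters, covariates and leaving out libraries; the covariates other than skeletal muscle and the contrasts within a sex, a diet or both were added after the values had been seen. The scripts were tested on simulated data. The members and gene lists were chosen with earlier results of these data known.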

Additional observations from a re-analysis of the deposited data

Results flagged for a closer look

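Under the HF diet the change of Nrg4 from CTRL to VDD offspring had opposite signs in the sexes, and neither change was called. The groups did not overlap in either sex, beside 10.3% of all genes in males and 22.9% in females. In males the log2 change was -0.475 (limma, adjusted p 0.94), with VDD libraries at most at 1648 normalised reads and CTRL libraries at least at 1693. In females it was 1.113 (limma, adjusted p 0.131), with all 3 VDD libraries above all 3 CTRL libraries. The difference between these responses was 1.56 (SE 0.35), with an adjusted p of 0.343 (limma) over all genes, and leaving out 1 library at a time gave 1.36 to 1.74, with adjusted p from 0.058 (without VDD LF male 2310, which is in neither HF group) to 0.811 (without CTRL HF male 2127). The change in males became -0.271 when CTRL HF male 2127 was left out and -0.664 when animal 2131 of that group was. Brown adipocyte markers were 2953 to 38688 normalised reads in VDD HF females and 207 to 808 in CTRL HF females, and with that list as a covariate the difference was 1.40 (adjusted p 0.77). In males, where Nrg4 was lower in VDD HF, these markers were higher, at 915 to 2965 against 266 to 689 in CTRL HF. The skeletal muscle list was also higher there by its median, at 217391 against 3041 in CTRL HF males. With the muscle list as a covariate the difference between the sexes was 1.48 (limma, adjusted p 0.436). The part of muscle in the changes within males was not tested. The pair of comparisons was noticed because of its opposite signs.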

How the results depend on the processing

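The number of the genes called moved by over 1.5 times, or from 0, under these alternatives. In VDD LF vs. VDD HF males it rose from 0 to 1 (Btc) in a fit over the 12 libraries of that sex and at an adjusted p under 0.05 without a limit on the fold, and in CTRL LF vs. CTRL HF females from 0 to 1 (Nrg4) without a filter and at an adjusted p under 0.05. For HF over the 4 combinations it went from 3 to 5 with scaling by total reads (Hbegf and Ilk added) and to 1 (Nrg4) at an adjusted p under 0.01 with the limit on the fold. For VDD it went from 0 to 1 (Erbb4) with an offset of 10 and at an unadjusted exact permutation p under 0.05, a rule without adjustment that gave 4 for HF and 6 for sex, and for females against males from 4 to 1 (Ilk) with the mammary epithelium covariate and to 2 (Btc and Erbb4) without the libraries named renal and with the stricter rule. For HF in females it went from 1 to 0 without the libraries named renal and with the stricter rule. Smaller losses were Btc for HF with the adipocyte and brown adipocyte covariates and without the libraries named renal, Hbegf between the sexes, and Nrg4 for HF in males with the brown adipocyte and mammary epithelium covariates, scaling by total reads and without the libraries named renal. The cause was not tested. Scaling by total reads shifted the median change of all genes by 0.18 for HF, -0.13 for VDD and 0.04 for sex, so that relative to this shift the change of Ilk under HF was near its main value.

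Directions turned for values that were not called. Btc became 0.148 in CTRL females and 0.04 over females with scaling by total reads, Erbb3 between the sexes went from 0.33 to -0.38 with the mammary epithelium covariate, and the difference of the Nrg4 response to HF in males between mothers became -0.606 with the adipocyte and -0.019 with the mammary epithelium covariate. Leaving out 1 library at a time gave 0 to 1 calls in VDD LF vs. VDD HF males, 0 to 1 for VDD and 0 to 1 for HF in females. The log2 changes then ranged from -0.216 to 0.061 for Btc in CTRL females, -0.421 to 0.066 for Erbb2, -0.344 to 0.021 for Nrg4 and -0.484 to 0.589 for Btc in VDD females, -0.067 to 0.179 for Erbb2 and -0.26 to 0.272 for Btc over females, and -0.306 to 0.259 for the Nrg4 response in males. Of 389 values under other settings 356 kept their direction and side of the threshold, and of 876 values with 1 library left out 820 did. No paired analysis was possible because the columns carry the group and an animal number and not the replicate number of the labels. Reads limit Erbb4, Nrg1, Areg and Hbegf.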
